A study of Arabidopsis thaliana with 15 samples.

Results

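Transcripts of the clock pseudo-response regulator genes PRR9 (AT2G46790), PRR7 (AT5G02810), PRR5 (AT5G24470), PRR3 (AT5G60100) and TOC1 (AT5G61380) were measured in Arabidopsis thaliana seedlings moved from darkness to light. These 5 of the 33323 listed genes were taken by their locus identifiers and not by a measured value, though earlier results of these data were known. All seedlings were Columbia-0 (Col-0) wild type, stratified for 4 days at 4 °C and grown in darkness at 22 °C for 4 days. They were harvested then (Dark), after another 4 h under white light at a fluence rate of 100 µmol per square metre a second (L4h), or after another 4 h of darkness (D4h). RNA came from the aerial part. Each of the 5 groups has 3 libraries: total RNA was sequenced in Dark, L4h and D4h, polysome-bound RNA in Dark and L4h. Replicates run from 1 to 3 in the sample titles, while the design text counts 2, and the labels do not say that replicates were grown apart, so p-values measure only the spread between these libraries.

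The circadian clock of Arabidopsis is a network of genes that repress each other in turn over the day. Its pseudo-response regulators are nuclear repressors with a receiver-like domain and a CCT domain at the end of the protein. In plants kept in day and night cycles their transcripts peak one after another, PRR9 in the morning, then PRR7, PRR5, PRR3 and, in the evening, TOC1. The PRR9, PRR7 and PRR5 proteins recruit TOPLESS-type corepressors to the genes CCA1 and LHY, which encode MYB-like repressors of the evening genes. PRR9 is known to respond quickly to light in seedlings, and the F-box protein ZTL sends TOC1 and PRR5 proteins to degradation. Only transcript levels were measured here, not the proteins.

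PRR9 lies at chr2:19232607-19235179 on the plus strand of the RefSeq build TAIR10.1. The other genes are on chromosome 5: PRR7 at chr5:637681-642030 and PRR5 at chr5:8356204-8358546, both on the minus strand, PRR3 at chr5:24197971-24201415 on the minus strand, and TOC1 at chr5:24674963-24678550 on the plus strand. None of them overlaps another annotated gene. The windows of 250 bases before the annotated starts were read because clock factors and light-responsive factors are known to bind short elements there. Capitals mark matches, on either strand, to the G-box CACGTG, the evening element AAAATATCT or the CCA1-binding site AAAAATCT, 3 motifs that do not overlap in these windows.

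The complete windows of PRR9 (chr2:19232357-19232606, plus strand) and TOC1 (chr5:24674713-24674962, plus strand) are shown for the genes with the largest and the smallest fitted response to light against D4h. For PRR5 and PRR7, 30 bases around the matches are shown, at chr5:8358721-8358750 and chr5:642214-642243 on the minus strand.
PRR9 window: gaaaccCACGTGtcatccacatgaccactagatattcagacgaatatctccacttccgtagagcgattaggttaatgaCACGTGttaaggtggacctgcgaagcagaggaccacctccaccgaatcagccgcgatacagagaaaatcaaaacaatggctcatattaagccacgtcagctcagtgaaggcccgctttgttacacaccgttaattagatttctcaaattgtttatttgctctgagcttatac
TOC1 window: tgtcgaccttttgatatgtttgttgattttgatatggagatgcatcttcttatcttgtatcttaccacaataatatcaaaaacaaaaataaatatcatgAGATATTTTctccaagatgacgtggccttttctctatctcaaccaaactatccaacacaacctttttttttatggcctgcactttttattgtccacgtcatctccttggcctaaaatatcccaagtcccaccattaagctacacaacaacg
PRR5 site: ttcgctAGATTTTTtctAGATATTTTcttt
PRR7 site: tacccaccattaCACGTGtcagttcaaaaa
The PRR9 window held 2 G-boxes, which began 244 and 172 bases before the start, and that of PRR7 held 1, which began 201 bases before it. TOC1 had 1 evening element, on the opposite strand, from 151 to 143 bases before the start. PRR5 had 1 evening element, 187 to 179 bases before, and 1 CCA1-binding site, 198 to 191 bases before, both on the opposite strand. The annotated start of PRR5 is that of its coding sequence, so its window can hold transcribed bases. No match to these letters lay in the PRR3 window. Among 27443 such windows of the genome, 6.49% held the G-box, 2.36% the evening element and 6.69% the CCA1-binding site, so the matches are a description and not evidence of binding.

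PRR9 was higher after 4 h of light in both kinds of RNA. Light also raised PRR5 relative to D4h in total RNA, and PRR5 on polysomes was higher in L4h than in Dark. Polysome-bound RNA was not sequenced in D4h, so on polysomes light cannot be told apart from 4 h of further age. PRR7 had its highest mean in L4h, while PRR3 and TOC1 had lower means in L4h than in Dark. None of these 3 passed the test for light in the main fits. PRR7 and PRR3 passed in a few alternatives. Among these was the fit on polysomes with the replicate number as a block, which called 43.2% of all genes. PRR7 was lower in polysome-bound than in total RNA, in Dark and in L4h alike.

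PRR9, the morning gene of the family, was the lowest of the 5 genes in dark-grown seedlings. Levels here are RPKM, reads per kilobase of gene and per unit of library size, recomputed on library sizes scaled by TMM (trimmed mean of M values), so that genes can be compared per length. In Dark, PRR9 had 4.73, 0.911 and 1.75 RPKM in total RNA of replicates 1, 2 and 3. In D4h it had 0.962, 1.67 and 1.32 RPKM, and in L4h 19.6, 14.4 and 12.5 RPKM. Every L4h library lay above every library of dark-kept seedlings, while Dark and D4h overlapped.

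In Dark the PRR9 mean was 2.47 ± 2.01 RPKM (SD, n = 3), with replicate 1 above the other libraries, and in L4h it was 15.5 ± 3.68 RPKM. The fitted log2 change from Dark to L4h was 2.67 ± 0.55 (SE), or 6.36-fold, with an adjusted p of 0.0128 (edgeR quasi-likelihood test, Benjamini-Hochberg over all genes). PRR9 was the only one of the 5 genes that passed this test, where 22.8% of the 21735 genes tested passed. By replicate number, L4h was 4.14, 15.9 and 7.11 times Dark. Without Dark replicate 1 the log2 change was 3.57, and with each of the other libraries left out it ran from 2.27 to 2.83. Without Dark replicate 3 the call was lost (edgeR adjusted p = 0.0544), and over the 18 alternatives the adjusted p ran from 1.92e-05 to 0.156. In bulk RNA, more cells with the transcript and more transcript per cell cannot be told apart.

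Against D4h, the control of equal age, PRR9 was 12.0-fold higher in L4h, a log2 change of 3.58 ± 0.58 (edgeR adjusted p = 0.00564). The call held with each library left out in turn and was lost in 3 of 20 alternatives, those without the libraries numbered 2 or numbered 3 and that with D4h replicate 1 left out and D4h replicates 2 and 3 as 1 library (adjusted p over all of them 2.86e-09 to 0.105). In polysome-bound RNA, PRR9 had 1.16, 0.636 and 0.438 RPKM in Dark and 6.41, 12.0 and 12.8 RPKM in L4h. The groups did not overlap, and the log2 change was 3.78 ± 0.48, or 13.7-fold (edgeR adjusted p = 0.0056). The number-matched ratios were 5.54, 18.8 and 29.3. The call was lost in 2 of 18 alternatives, without the libraries numbered 2 or numbered 3 (adjusted p over all of them 2.24e-13 to 0.184), both edgeR fits in which 0% of all genes were called.

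PRR9 shares sequence with a shorter gene on the same chromosome, AT2G46670. Of the 1996 windows of 50 bases in its longest transcript, 39.1% also occur there, and 12 of the 15 libraries list a fractional PRR9 count. The shorter gene held 0% to 27.6% as many reads as PRR9, with the highest values in Dark polysome libraries. With the reads of both genes added, the log2 ratio of group means from Dark to L4h was 2.60 in place of 2.65 in total RNA and 3.52 in place of 3.81 in polysome-bound RNA. The other 4 genes share no such window with another gene.

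**Figure D1:**
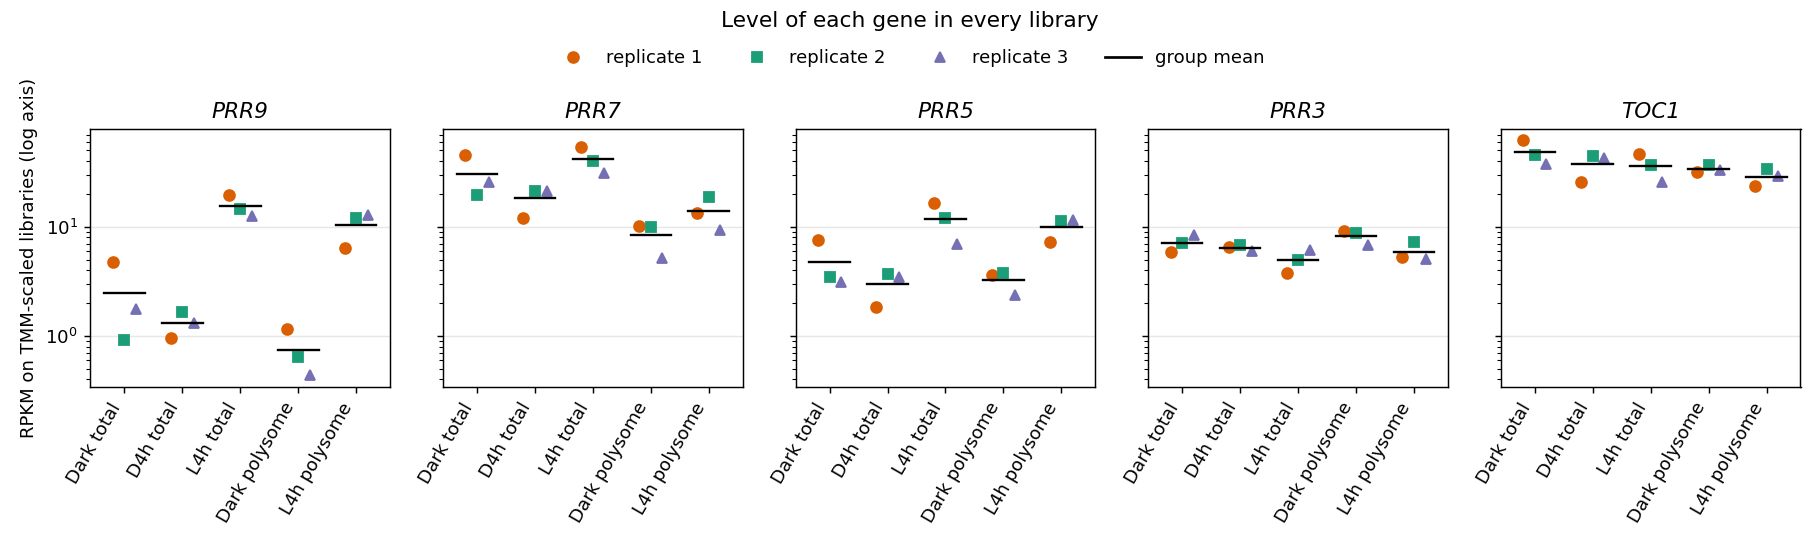
Level of each gene (RPKM on TMM-scaled libraries, log axis) in the 15 libraries, by group; symbols mark the replicate number and bars the group mean. PRR9 lies at 12.5 RPKM or above in the L4h total RNA libraries and at 4.73 RPKM or below in every library of dark-kept seedlings.

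PRR5, a repressor of the late day, was low in darkness. It was higher in L4h than in D4h in total RNA, and higher than in Dark on polysomes. In total RNA it had 7.64, 3.50 and 3.15 RPKM in Dark and 1.83, 3.72 and 3.44 RPKM in D4h. In L4h it had 16.4, 12.1 and 6.93 RPKM. All L4h values were above D4h, but the lowest of them was under Dark replicate 1.

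Against D4h, PRR5 was 4.00-fold higher in L4h, a log2 change of 2.00 ± 0.46 (edgeR adjusted p = 0.023), and PRR9 and PRR5 were the 2 genes of the 5 called there, where 14.4% of genes passed. Against Dark the log2 change of PRR5 was 1.32 ± 0.45 and did not pass (edgeR adjusted p = 0.0646), although it passed with DESeq2 (adjusted p = 0.0225). The range over 18 alternatives was 0.00542 to 0.385. L4h was above Dark in each replicate number, by 2.14, 3.46 and 2.20 times.

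In polysome-bound RNA, PRR5 had 3.63, 3.81 and 2.35 RPKM in Dark and 7.18, 11.3 and 11.6 RPKM in L4h. These groups did not overlap. The log2 change was 1.59 ± 0.31, or 3.01-fold (edgeR adjusted p = 0.0221), and PRR9 and PRR5 were again the 2 genes called, where 10.5% of the 20975 genes tested passed. The calls of PRR5 were not stable to the loss of a library: without 1 library at a time, the edgeR adjusted p ran from 0.0192 to 0.086 on polysomes and from 0.0228 to 0.0716 against D4h.

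PRR7, a day-phase repressor that acts with PRR9, was among the more abundant members of the family in every group of total RNA. Its total RNA levels were 45.1, 19.5 and 25.8 RPKM in Dark, 53.5, 39.7 and 31.1 RPKM in L4h, and 12.1, 21.3 and 21.3 RPKM in D4h. L4h lay above D4h in every library and overlapped Dark. The log2 change was 1.20 ± 0.36 against D4h (edgeR adjusted p = 0.0578) and 0.47 ± 0.35 against Dark (edgeR adjusted p = 0.37). Against D4h it passed in 2 of 20 alternatives, with DESeq2 (adjusted p = 0.0135) and without the libraries numbered 1 (edgeR adjusted p = 0.0156), and the range reached 0.319.

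On polysomes PRR7 had 10.2, 10.0 and 5.20 RPKM in Dark and 13.4, 18.9 and 9.38 RPKM in L4h. These ranges overlapped, and the log2 change of 0.68 ± 0.36 did not pass (edgeR adjusted p = 0.304). Within replicate numbers, L4h was 1.31, 1.88 and 1.80 times Dark. With the replicate number as a block, which the pairing of these libraries allows, PRR7 passed with a log2 change of 0.68 (edgeR adjusted p = 0.0139), in a fit that called 43.2% of all genes.

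PRR3, which is known to shield TOC1 protein from ZTL, moved little. It had 5.91, 7.15 and 8.43 RPKM in Dark, 3.79, 4.97 and 6.14 RPKM in L4h and 6.51, 6.75 and 5.99 RPKM in D4h. The ranges overlapped, though L4h was below Dark within each replicate number, at 0.641, 0.695 and 0.729 times. The log2 difference was -0.52 ± 0.21 from Dark (edgeR adjusted p = 0.103) and -0.35 ± 0.21 from D4h (edgeR adjusted p = 0.296).

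On polysomes PRR3 had 9.20, 8.74 and 6.85 RPKM in Dark and 5.34, 7.20 and 5.04 RPKM in L4h. L4h was again lower within each number, at 0.580, 0.824 and 0.736 times, and the groups overlapped. The log2 difference was -0.53 ± 0.25 (edgeR adjusted p = 0.236). Under the replicate block it was -0.53 and passed (edgeR adjusted p = 0.0295). In that fit 4 of the 5 genes were called, all but TOC1, where 43.2% of all genes were.

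TOC1, the evening repressor, was the most abundant of the 5 genes in every group but L4h total RNA. Its levels in total RNA were 61.9, 45.2 and 37.7 RPKM in Dark, 46.4, 36.8 and 25.6 RPKM in L4h and 25.6, 44.6 and 42.5 RPKM in D4h. In L4h it was 0.750, 0.815 and 0.679 times Dark by number, and the 3 groups overlapped. The log2 difference between L4h and Dark was -0.40 ± 0.30 (edgeR adjusted p = 0.359) and that between L4h and D4h was -0.03 ± 0.30 (edgeR adjusted p = 0.966).

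Polysome-bound TOC1 was at 32.0, 37.2 and 33.2 RPKM in Dark and at 23.5, 33.9 and 29.1 RPKM in L4h. The groups overlapped. Their log2 difference was -0.27 ± 0.23 (edgeR adjusted p = 0.526).

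**Figure D2:**
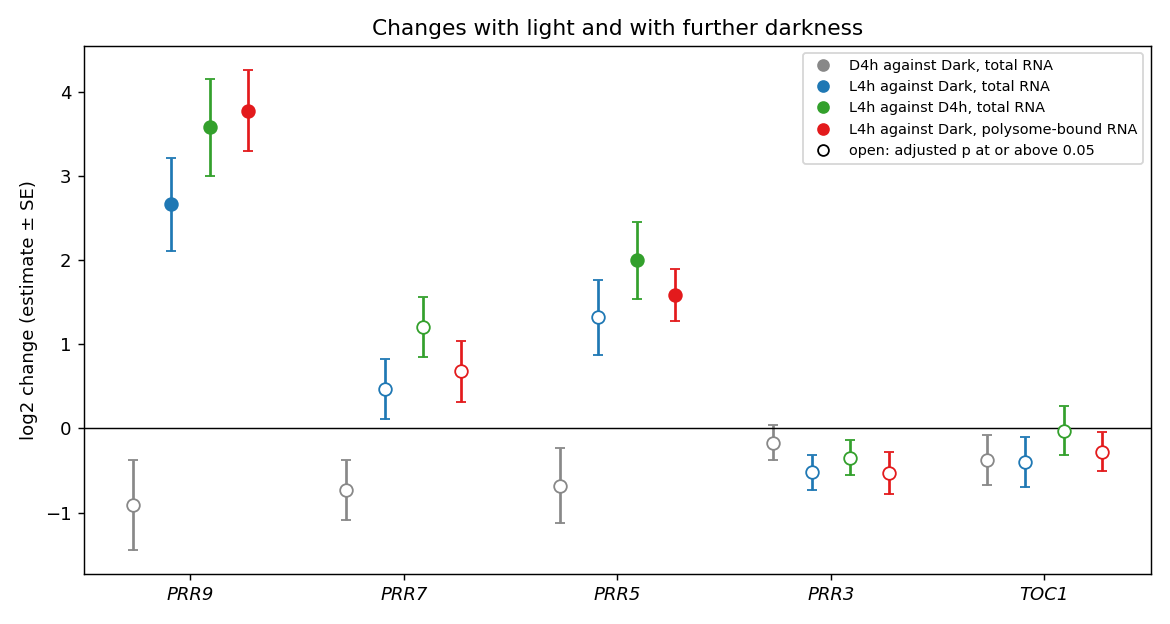
Log2 change of each gene with its SE in 4 comparisons; filled points passed the adjusted p threshold of 0.05. PRR9 is filled in the 3 comparisons with light (2.67, 3.58 and 3.78), PRR5 in 2 of them (2.00 and 1.59), and no gene is filled for D4h against Dark.

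A further 4 h of darkness gave no called change. Of the 5 genes, 0 passed for D4h against Dark, where 0% of all genes did in edgeR, with 822 genes at an unadjusted p under 0.05, 15 called by DESeq2 and 0 by limma. The estimates were -0.91 ± 0.53 for PRR9, -0.74 ± 0.36 for PRR7, -0.68 ± 0.44 for PRR5, -0.17 ± 0.21 for PRR3 and -0.38 ± 0.30 for TOC1 (log2 change ± SE), with edgeR adjusted p of 0.848 to 0.866. Apart from PRR3, the lower estimates rest on the libraries numbered 1. In that number, D4h was 0.203, 0.269, 0.240 and 0.413 times Dark for PRR9, PRR7, PRR5 and TOC1, against 0.754 to 1.83 times in numbers 2 and 3. Same-numbered D4h and Dark libraries missed the limit for pairing given below, so these ratios are only a description. With all libraries numbered 1 left out, the log2 change of PRR9 was 0.14. PRR3 was at 1.10, 0.943 and 0.712 times Dark by number.

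Libraries numbered 1 stood apart in other ways that touch these results. Dark replicate 1 had the highest PRR9, PRR7, PRR5 and TOC1 level of its group, and D4h replicate 1 the lowest. The summed level of 7 greening and light-response markers was 9708 CPM (counts scaled to library size) in D4h replicate 1, against 1105 and 1026 CPM in D4h replicates 2 and 3, 416.8 to 1248 CPM in Dark and 8368 to 14190 CPM in L4h total RNA. On polysomes it was 3097 CPM in Dark replicate 1 against 602.2 and 657.6 CPM in replicates 2 and 3, and 31720 CPM in L4h replicate 1 against 9837 and 12100 CPM. In D4h replicate 1, LHCB1.3 alone held 7310 CPM. Each other greening marker there lay above D4h replicates 2 and 3 and below all L4h total RNA libraries. The 4 dark-state markers summed to 2704 CPM in D4h replicate 1, against 1320 and 1296 CPM in replicates 2 and 3. Their sum was 1011 to 1880 CPM in Dark and 268.1 to 444.1 CPM in L4h total RNA. The excess in D4h replicate 1 lay in PORA alone, at 1741 CPM against 227.6 and 219.3 CPM in replicates 2 and 3. PHYA, ATHB2 and PIL1 were each lower in D4h replicate 1 than in those 2 libraries. The part of this in the results was not tested. The median difference between D4h replicates 2 and 3 was 0.0677 on the log2 scale, against 0.141 to 0.612 for the other pairs within groups, yet it exceeded counting noise (chi-square of 5.76 per degree of freedom). They were kept as 2 libraries, and taken as 1 the L4h to D4h change of PRR9 kept its call while that of PRR5 lost it (edgeR adjusted p = 0.0674, range over alternatives 0.0003 to 0.26).

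With all libraries numbered 1 left out, 4 of the 5 genes passed for L4h against Dark in total RNA, PRR9, PRR5 and PRR7 higher and PRR3 lower, where 48.3% of all genes passed. With those numbered 2 left out, 0 of the 5 passed, where 0.11% of genes did, and with those numbered 3 left out, 0 of the 5 and 0.449%. Between 60.8 and 101 M reads per library fell in listed genes, and the 5 genes had between 64.0 and 15600 reads each, with the fewest for PRR9 in Dark polysome replicate 3. The 7 root markers summed to 0.456 to 6.40 CPM and the 4 shoot and epidermis markers to 1091 to 2540 CPM.

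The order of the 5 levels changed with light. In Dark total RNA the order was TOC1 (48.3 ± 12.4 RPKM), PRR7 (30.1 ± 13.4), PRR3 (7.16 ± 1.26), PRR5 (4.77 ± 2.50) and PRR9. Neighbours overlapped in range except PRR7 and PRR3. The D4h libraries had the same order with no overlap between neighbours, from 37.6 ± 10.4 RPKM for TOC1 and 18.3 ± 5.30 for PRR7 to 6.42 ± 0.386 for PRR3, 3.00 ± 1.02 for PRR5 and 1.32 ± 0.35 for PRR9. In L4h total RNA, PRR7 (41.4 ± 11.3 RPKM) and TOC1 (36.3 ± 10.4) overlapped at the top, PRR9 and PRR5 (11.8 ± 4.74) overlapped in the middle, and PRR3 (4.97 ± 1.18) was last, below both without overlap.

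Polysome-bound RNA gave another order. In Dark, TOC1 (34.1 ± 2.71 RPKM) was 4.02 times PRR7 (8.48 ± 2.84), which overlapped PRR3 (8.27 ± 1.24), with PRR5 (3.26 ± 0.80) and PRR9 (0.744 ± 0.371) below. In L4h, TOC1 (28.8 ± 5.25 RPKM) stayed above the rest, and PRR7 (13.9 ± 4.77), PRR9 (10.4 ± 3.48), PRR5 (10.0 ± 2.45) and PRR3 (5.86 ± 1.17) each overlapped the next.

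As shares of the summed RPKM of the 5 genes, PRR9 took 2.42% ± 1.3 (SD, n = 3) in Dark total RNA, 1.99% ± 0.186 in D4h and 14.2% ± 0.912 in L4h. TOC1 took 52.6% ± 5.78, 56.2% ± 1.54 and 32.8% ± 1.5. The L4h shares of both genes lay outside the range of the dark-kept libraries, those numbered 1 included. On polysomes the PRR9 share was 1.34% ± 0.624 in Dark and 14.9% ± 3.72 in L4h, and the TOC1 share 62.5% ± 6.12 and 41.9% ± 1.07. A share depends on all 5 genes, so the TOC1 share moves with its own level and with the levels of the others. The TOC1 level was lower in L4h than in Dark in each replicate number without passing the test. In total RNA it was 1.82, 0.825 and 0.604 times D4h by number.

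**Figure D3:**
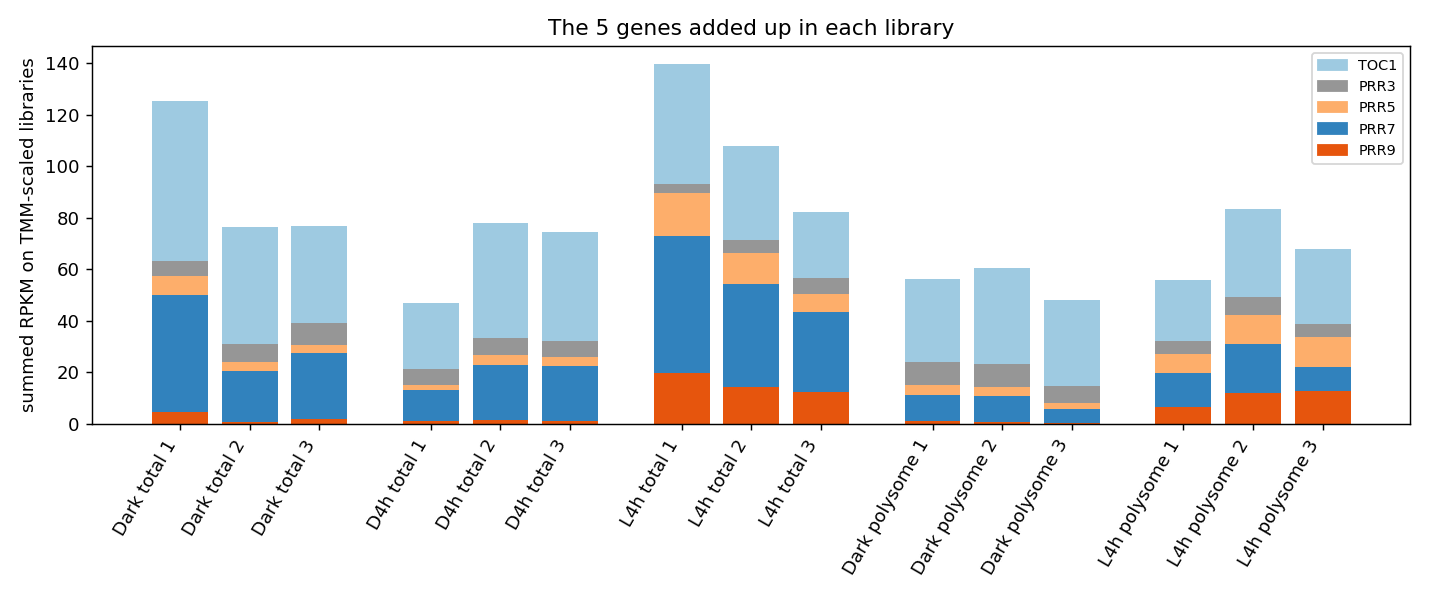
Summed RPKM of the 5 genes in each of the 15 libraries, with 1 coloured block per gene. The PRR9 block takes 13.4% to 15.2% of the L4h total RNA bars and 1.20% to 3.78% of the Dark ones, and the sum is highest in L4h replicate 1 at 139.7.

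The ratio of polysome-bound to total RNA compares the share of a transcript in the 2 kinds of RNA relative to the typical gene, since TMM scales each library so that most genes stay level. Across 22023 genes the median ratio of group means was 1.00 in Dark and 1.01 in L4h. PRR7 was far below it. By replicate number its ratio was 0.226, 0.515 and 0.202 in Dark and 0.25, 0.476 and 0.302 in L4h, and 3.18% of genes in Dark and 3.78% in L4h had a lower ratio of group means. For PRR9 these shares were 3.66% and 22.2%.

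In the test, PRR7 was 3.55-fold lower in polysome-bound than in total RNA in Dark, a log2 difference of -1.83 ± 0.39 (edgeR adjusted p = 0.0102), and it was the only one of the 5 genes called, where 19.9% of the 21924 genes tested were. In L4h it was 2.98-fold lower, -1.58 ± 0.39 (edgeR adjusted p = 0.0165), again the only one of the 5, where 20.9% of genes were called. Polysome and total RNA ranges did not overlap in either condition. The L4h call was lost without L4h polysome replicate 3 or L4h total replicate 1 (edgeR adjusted p = 0.056 and 0.0558, range over alternatives 0.000989 to 0.109), and the Dark call held with each library left out in turn (edgeR adjusted p of 0.0178 to 0.0376).

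PRR9 had ratios of 0.245, 0.698 and 0.249 in Dark and 0.327, 0.829 and 1.03 in L4h. Its log2 difference in Dark was -1.73 ± 0.56 and missed the threshold (edgeR adjusted p = 0.0509). With the replicate number as a block it was -1.63 and passed (edgeR adjusted p = 0.0345), in a fit that called 32.4% of genes, and over 18 alternatives the adjusted p ran from 0.0115 to 0.24. Without Dark total replicate 1 the log2 difference was -0.85. In L4h the log2 difference was -0.58 ± 0.54 (edgeR adjusted p = 0.489).

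The other ratios lay closer to that of the typical gene. PRR5 was at 0.475, 1.09 and 0.745 in Dark and at 0.438, 0.934 and 1.67 in L4h, TOC1 at 0.518, 0.823 and 0.879 and at 0.505, 0.922 and 1.13. PRR3 was at 1.56, 1.22 and 0.813 in Dark and at 1.41, 1.45 and 0.821 in L4h, so its libraries lay on both sides of 1. In Dark the log2 differences were -0.55 ± 0.40 for PRR5, 0.20 ± 0.24 for PRR3 and -0.50 ± 0.26 for TOC1 (edgeR adjusted p = 0.367, 0.59 and 0.194), and none of these 3 passed in L4h.

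Whether the ratio differed between Dark and L4h was tested by the interaction of light and kind of RNA. For PRR9 it was 1.15 ± 0.77 on the log2 scale (unadjusted p = 0.161 in edgeR, adjusted p = 1), and for the other 4 genes it lay between 0.03 and 0.31. Of the 5 genes 0 passed, where 0% of genes did, with 115 genes at an unadjusted p under 0.05, 3 called by DESeq2 and 0 or 1 by limma, depending on the pseudocount. The larger change of PRR9 from Dark to L4h on polysomes was thus not separated from that in total RNA.

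**Figure D4:**
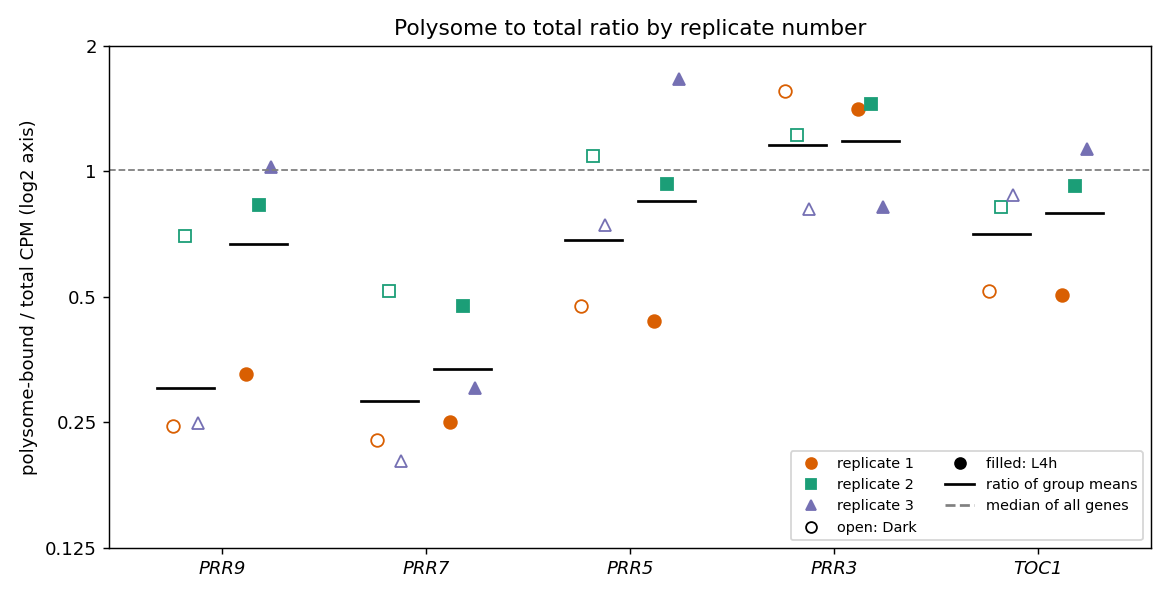
Ratio of polysome-bound to total CPM for each gene by replicate number (log2 axis), open symbols for Dark and filled for L4h, bars at the ratio of group means and a dashed line at the median of 22023 genes. The PRR7 symbols run from 0.202 to 0.515, all below the dashed line, while the PRR3 symbols lie on both sides of it.

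Across the 15 libraries, the log2 CPM of PRR9 and PRR5 had a Pearson r of 0.93, given as a description since the libraries share groups and replicate numbers. PRR9 and PRR7 had 0.59, PRR9 and PRR3 -0.70, and TOC1 and PRR9 -0.08. Among 22058 genes, the pattern most like that of PRR9 was that of LNK1 (AT5G64170; r = 0.974), a coactivator that works with the MYB-like activator RVE8. NAC2 (AT5G04410), a NAC-domain protein, had 0.972 and AT2G21560 had 0.969. Closest to PRR5 were DREB2A, a transcription factor of drought and heat responses (0.983), AT2G25450 (0.974) and AT4G33700 (0.962).

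For PRR7 the nearest were NLP7, a regulator of nitrate responses (0.970), D2HGDH, a D-2-hydroxyglutarate dehydrogenase (0.967), and AT5G20840, the SAC4 gene (0.963). For TOC1 they were AT4G16190 (0.952), AT3G17770 (0.946) and AT5G14940 (0.941). PRR3 had the weakest likeness, with AT1G66930 (0.924, at a mean of only 0.227 CPM), the cyclin gene CYCB2;2 (0.906) and the urate oxidase gene AT2G26230 (0.899). Genes with r above 0.9 numbered 128 for PRR9, 59 for PRR5, 46 for PRR7, 36 for TOC1 and 2 for PRR3.

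The genes that surround the PRR repressors in the clock were followed as 34 genes in 7 lists, 32 of which were expressed enough to be tested. For L4h against Dark in total RNA, 10 were higher and 2 lower, where 22.8% of all genes were called, 2734 higher and 2221 lower. Their median log2 change was 0.39, and that of all genes was -0.02. Against D4h, 9 were higher and 2 lower, where 14.4% of all genes were called, and on polysomes 9 and 2, where 10.5% were. For D4h against Dark, 0 were called by edgeR, as over all genes. Groups without overlap there were those of LHY (4.89 times Dark), RVE8 (1.66), ELF3 (1.21), AT5G52660 (0.875), LUX (0.588), GI (0.471) and FKF1 (0.406). The share of all genes without overlap was not computed, so these 7 genes cannot be set against it and are only a description.

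The MYB-like repressors CCA1 and LHY, the best-known targets of the family, did not pass for L4h against Dark. The log2 change was 1.68 ± 0.61 for CCA1 (edgeR adjusted p = 0.0794) and 0.39 ± 0.47 for LHY (edgeR adjusted p = 0.593). LHY had 15.5, 30.1 and 42.0 CPM in L4h and 173, 78.7 and 79.6 CPM in D4h, groups without overlap, and was 3.74-fold lower in L4h, -1.90 ± 0.49 (edgeR adjusted p = 0.0356). Between D4h and Dark, the fold estimate of LHY was 4.89, with no overlap and no call (edgeR adjusted p = 0.848). CCA1 differed from D4h by 0.34 ± 0.59 in L4h (edgeR adjusted p = 0.752).

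Among the REVEILLE activators and LNK coactivators, which drive PRR5 and TOC1, 3 of 7 were higher in L4h than in Dark in total RNA (22.8% of all genes called). LNK1 went from 40.0, 13.3 and 16.2 CPM in Dark to 176, 144 and 133 CPM in L4h. Its log2 change was 2.72 ± 0.39 (edgeR adjusted p = 0.00335), and it was 3.03 against D4h and 3.06 on polysomes. RVE8 rose by 1.14 ± 0.29 (edgeR adjusted p = 0.0253) and AT5G52660 by 0.57 ± 0.15 (edgeR adjusted p = 0.0313).

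In the list of the evening complex and GI, 2 of 5 were higher and 1 lower in L4h than in Dark total RNA (22.8% of all genes called). ELF4, a subunit of the complex, had 3.46, 6.83 and 5.52 CPM in Dark and 38.7, 43.2 and 21.0 CPM in L4h, a log2 change of 2.71 ± 0.33 (edgeR adjusted p = 0.00174). BOA, a homolog of the DNA-binding subunit LUX, had 53.4, 54.6 and 41.9 CPM in Dark and 9.13, 6.32 and 3.57 CPM in L4h, -2.97 ± 0.37 (edgeR adjusted p = 0.0018). GI, which stabilizes ZTL, was higher by 1.10 ± 0.33 (edgeR adjusted p = 0.0429) and by 2.19 ± 0.34 against D4h (edgeR adjusted p = 0.0048). ZTL itself was at 0.70 ± 0.22 against Dark (edgeR adjusted p = 0.0513) and was higher than in D4h by 0.96 ± 0.22 (edgeR adjusted p = 0.0236).

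Of the 6 direct targets outside the core clock, 3 were higher and 1 lower in L4h than in Dark total RNA (22.8% of all genes called). CDF1, a DOF repressor of flowering genes, rose from 2.62, 0.192 and 0.361 CPM to 14.9, 8.30 and 7.22 CPM, a log2 change of 3.29 ± 0.94 (edgeR adjusted p = 0.0384). CDF3 rose by 2.26 ± 0.48 and PIF5, a bHLH transcription factor, by 1.49 ± 0.44 (edgeR adjusted p = 0.0143 and 0.0411). AT1G69570 was lower, at -1.48 ± 0.41 (edgeR adjusted p = 0.0353). On polysomes PIF4 passed too, at 1.49 ± 0.33 (edgeR adjusted p = 0.0334).

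Among the corepressor genes whose products PRR proteins bind, 1 of 7 was called for L4h against Dark in total RNA, TPR3 at 1.04 ± 0.20 (edgeR adjusted p = 0.00931), and 0 on polysomes, where 22.8% and 10.5% of all genes were called. Of the other pseudo-response regulators, APRR2 rose by 1.14 ± 0.34 (edgeR adjusted p = 0.0448), while APRR4 and APRR6 had too few reads to test. Relative to total RNA, polysome-bound RNA held less of TPL, TPR2, TPR4 and APRR8 in both conditions and of TPR1 in L4h. Of the 32 list genes tested, 1 was higher and 4 lower on polysomes in Dark, where 19.9% of all genes were called. In L4h 1 was higher and 5 lower, where 20.9% were, so the lists did not stand out from all genes. In Dark the log2 differences were -0.77 ± 0.21 for TPL, -0.89 ± 0.19 for TPR2, -0.82 ± 0.18 for TPR4 and -1.64 ± 0.35 for APRR8 (edgeR adjusted p = 0.0265, 0.0107, 0.0111 and 0.00983). ELF4 went the other way, at 1.69 ± 0.35 in Dark (edgeR adjusted p = 0.00831) and 1.87 ± 0.35 in L4h (edgeR adjusted p = 0.00491).

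**Figure D5:**
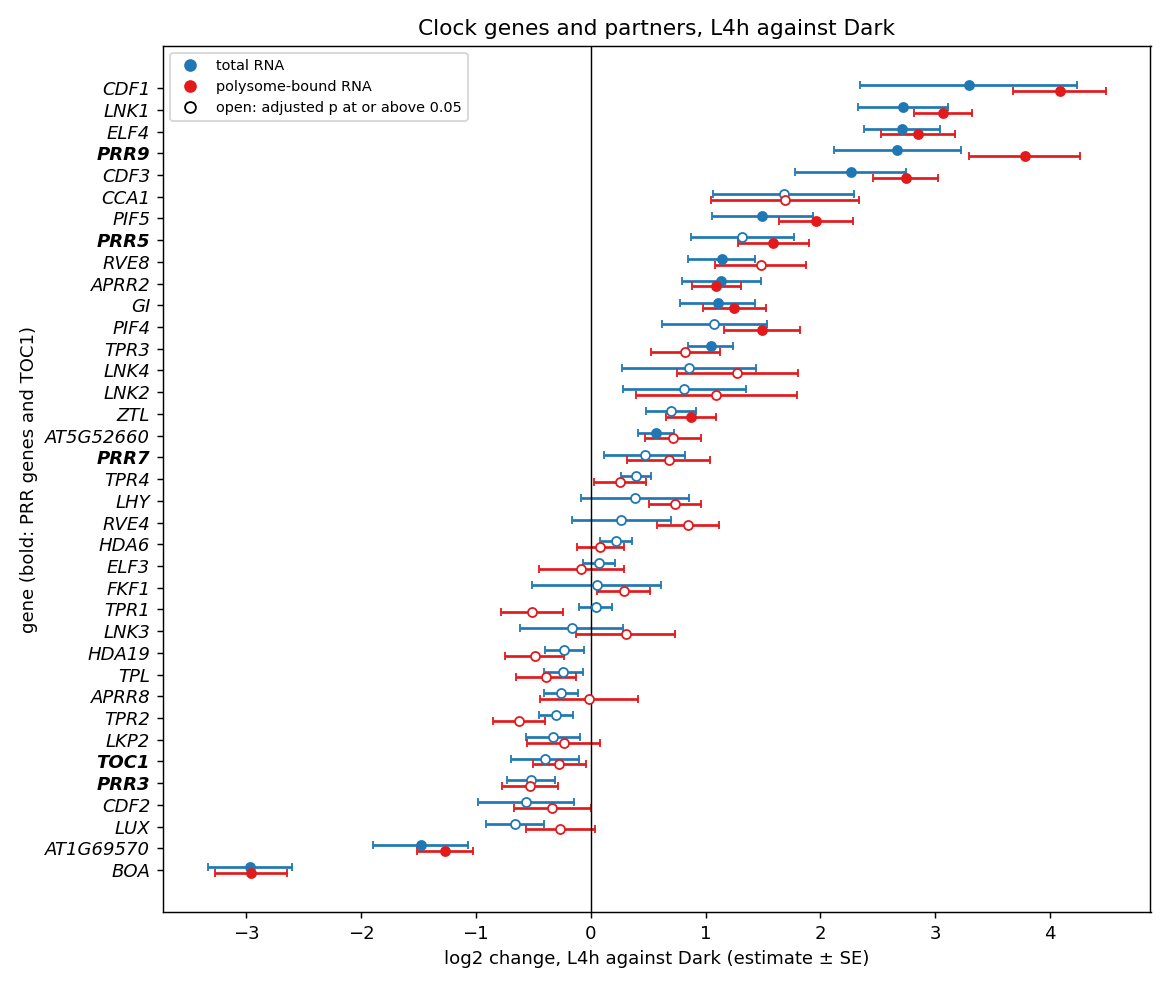
Log2 change of the 32 tested clock genes and of the 5 PRR genes (bold) from Dark to L4h, with SE, in total and polysome-bound RNA, ordered by the change in total RNA; filled points passed the adjusted p threshold of 0.05. PRR9 (2.67 and 3.78) stands beside LNK1, ELF4 and CDF1 at the upper end, and BOA (-2.97 in total RNA) is lowest.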

How the data were processed

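Counts of reads per gene were deposited by the authors as estimated counts, not normalized and whole in 84.4% to 87.2% of genes per library (tolerance 1e-06), and were rounded before the fits. The same deposited tables hold RPKM, computed by the authors, and the gene length in kilobases. The submitters' processing notes name the build TAIR10; aligner, counting tool, strand and the polysome method are not given in the sources used here. Coordinates, windows and sequences come from the RefSeq annotation and genome of TAIR10.1. No protein sequences were compared.

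Counts were fitted with edgeR 4.0.16 in R 4.3.3 (TMM, filterByExpr at 10 counts, quasi-likelihood F test, Benjamini-Hochberg over all genes, threshold 0.05). The 9 total RNA libraries, the 6 polysome libraries and the 12 Dark and L4h libraries of both kinds each formed a fit, and all 5 genes passed the filter in each. SE is the log2 change over the root of F. RPKM and CPM levels were recomputed on TMM factors of all 15 libraries. Likeness is Pearson r of log2 CPM with a prior count of 2. The smallest exact permutation p of 3 against 3 libraries is 0.1, so none was used.

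Alternatives were DESeq2 1.42.0, limma 3.58.1 on log2(RPKM + 1) and log2(RPKM + 0.1), RLE scaling, other filters, 1 fit of all 15 libraries, a replicate block, and libraries left out by library or by number. The 5 genes, the lists and the alternatives were chosen with earlier results of these data known. Named besides the 5 are the list genes past the threshold, CCA1, LHY, GI and ZTL in any case, and the 3 genes most like each of the 5. List genes without overlap between D4h and Dark are named too. Same-numbered libraries were taken as paired where their deviations from group means correlated above 0.1 for every number. The correlations were 0.387 to 0.596 between L4h and Dark in total RNA and 0.562 to 0.695 on polysomes. Between the 2 kinds of RNA they were 0.279 to 0.473 in Dark and 0.124 to 0.384 in L4h. They missed the limit for D4h, at 0.0804 to 0.154 with Dark and -0.268 to 0.3 with L4h.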

Additional observations from a re-analysis of the deposited data

How the results depend on the processing

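Counts are of the 5 genes called, with the share of all genes called in brackets. For L4h against Dark in total RNA (1), DESeq2 (32.9%) and the fit of all 15 libraries (19.3%) gave 2, the omission of all libraries numbered 1 gave 4 (48.3%) and of those numbered 2 (0.11%) or 3 (0.449%) gave 0, and single libraries left out gave 0 to 2. For L4h against D4h (2), DESeq2 (24.2%) and the omission of number 1 (47%) gave 3, PRR7 added, the omission of number 2 (0.023%) or 3 (0.723%) gave 0, D4h replicates 2 and 3 as 1 library gave 1 (5.93%), and the same with D4h replicate 1 left out, chosen after seeing the data, gave 0 (7.26%). Single omissions gave 1 to 2. For L4h against Dark on polysomes (2), the replicate block gave 4 (43.2%), limma gave 1 at either pseudocount (10.5% at 0.1), the omission of number 2 or 3 gave 0 (0% in both) and single omissions gave 1 to 2. For polysome-bound against total RNA in Dark (1), DESeq2 (28%), all 15 libraries (22.7%), a filter of 1 RPKM or more in 3 libraries (23.4%), the replicate block (32.4%) and the omission of number 1 (19.5%) gave 2, the omission of number 2 or 3 gave 0 (0% in both), and single omissions gave 1 to 2. In L4h (1), the omission of number 1 (24%), 2 (0%) or 3 (0%) gave 0 and single omissions gave 0 to 1. With single libraries left out, 8.05% to 21.1% of all genes were called for L4h against Dark in total RNA. The share was 5.93% to 25.5% for L4h against D4h and 3.53% to 12.4% for L4h against Dark on polysomes. For polysome-bound against total RNA it was 10.3% to 19.6% in Dark and 11.2% to 19.1% in L4h. The robust fit, also chosen after seeing the data, changed no call, nor did the block change any other. These fits have fewer libraries where some are left out; other causes were not tested.

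No called value changed its direction under any of these settings. Uncalled log2 values changed sign as follows. For D4h against Dark, without number 1, PRR9 was 0.14, PRR5 0.0868 and TOC1 0.0503, and without number 3 PRR3 was 0.0253. For L4h against D4h, TOC1 was 0.10 and 0.29 without numbers 2 and 3, 0.0852 with D4h replicates 2 and 3 as 1 library, and -0.21 to 0.20 with single libraries left out. For polysome-bound against total RNA, PRR3 with limma at pseudocounts 1 and 0.1 was -0.0385 and -0.0435 in Dark and -0.0441 and -0.0556 in L4h. In L4h without number 1, PRR5 was 0.26 and TOC1 0.0118, and PRR5 was -0.56 to 0.0720 with single libraries left out. For the interaction, PRR3 was -0.12 without number 2, -0.00565 and -0.0121 with limma and -0.0117 with no filter, and PRR5 was -0.0419 without number 3. With single libraries left out it was -0.18 to 0.16 for PRR3, -0.21 to 0.62 for PRR5, -0.16 to 0.48 for PRR7 and -0.0879 to 0.38 for TOC1. On deposited RPKM, the levels of PRR3 in D4h (7.03) and TOC1 in Dark polysomes (30.8) moved by over 1 SD. Reads of PRR9 and its partial copy cannot be assigned with certainty.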
